A study of Arabidopsis thaliana with 16 samples.

Results

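Transcripts of 5 genes of plastid redox control and antioxidant defence were followed in the ppi2 mutant of Arabidopsis thaliana and in its wild type (WT). They were NTRC (AT2G41680), the type II peroxiredoxin AT3G52960 (called PRXIIE here), SRX (AT1G31170), CCS (AT1G12520) and CHL (AT3G47860). They were chosen by locus as the probes whose only listed gene was 1 of these 5. Each gene had 1 such probe, which made 5 of the 691 genes that had a single-gene probe among the 3439 probes on the array. CCS and NTRC transcripts were more abundant in ppi2, 3.93-fold and 2.94-fold. PRXIIE, SRX and CHL lay near the dim end of the scale and had lower mean levels in ppi2, by amounts that did not pass the test. CCS was dim in WT as well, so the size of its fold depends on the floor.

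The study measured total RNA on an expression array in 8 ppi2 and 8 WT samples, both of the ecotype Wassilevskija. The ppi2 mutant is defective in importing precursor proteins into chloroplasts. It lacks the outer envelope receptor Toc159 and is known for albino seedlings. The labels give no tissue, plant age, growth condition, batch or allele beyond the name ppi2, and do not tell whether samples are separate plants. Within each genotype every sample correlated best with the sample numbered next to it (1 with 2, 3 with 4 and so on, 8 of 8 samples in ppi2 and 8 of 8 in WT). Such neighbours were averaged and counted once, as pairs 1 to 4 of each genotype (n = 4 per group). P-values measure the spread between these pairs, which may be technical.

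Chloroplast enzymes are switched on and off, and protected, through the redox state of their cysteines. Ferredoxin-thioredoxin reductase takes electrons from light-reduced ferredoxin and passes them to thioredoxins, whereas NTRC takes them from NADPH and holds a thioredoxin domain of its own. NTRC is the main reductant of the 2-Cys peroxiredoxins, which remove hydrogen peroxide. Sulfiredoxin repairs these peroxiredoxins after overoxidation, and the type II peroxiredoxin of plastids removes peroxides with electrons from the glutathione system. CCS delivers copper to the copper/zinc superoxide dismutases, and the chloroplastic lipocalin protects thylakoid lipids from oxidation. All 5 are made in the cytosol from nuclear genes. Transcripts were measured here, not proteins or their import.

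The deposited intensities ran from 0 to 100 in every sample. The deposited median of a sample was 0.168 to 0.269 in ppi2, 0.198 to 0.212 in WT pairs 1 and 2 and 0.0976 to 0.124 in WT pairs 3 and 4, so WT was divided. Over all probes, Pearson's r between WT pair means was 0.898 for pairs 1 with 2, 0.885 for pairs 3 with 4 and 0.759 to 0.812 for the other combinations (a description across probes, which are not independent). The median SD over pairs was 0.291 in ppi2 and 0.662 in WT on the log2 scale. Results are therefore also given against WT pairs 1 and 2 alone and WT pairs 3 and 4 alone. Quantile-normalized intensities are used below unless a value is called deposited. A floor was set at 0.0338 (-4.89 in log2), and values at the floor have no order. Toc159 had no probe of its own, so the mutated gene gave no check of the labels. Of 5 markers of green leaf cells, 1 had a probe of its own. It was LHCB1.5 (AT2G34420), a light-harvesting protein, which fell in ppi2 (log2 difference -3.19 ± 0.25 SE, limma adjusted p = 0.000311). None of 5 markers of roots and non-green plastids had one. Fewer green cells and less RNA per cell cannot be told apart in such samples, and their part in the results below was not tested.

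NTRC, the NADPH-dependent thioredoxin reductase, rose in ppi2. Its deposited intensity was 0.397 at the lowest, 0.772 at the median and 0.924 at the highest of the 8 ppi2 samples, against 0.0385, 0.166 and 0.286 in the 8 WT samples. As deposited, every ppi2 sample was brighter than every WT sample. After normalization the lowest, median and highest values were 0.320, 0.579 and 0.837 in ppi2, against 0.0712, 0.191 and 0.396 in WT. On this scale the samples overlapped, because WT sample 6, at 0.396, exceeded ppi2 samples 1 and 2, at 0.381 and 0.320. The averaged pairs did not overlap. Their log2 levels were -1.52, -1.07, -0.49 and -0.31 in ppi2 pairs 1 to 4, against -2.13, -2.58, -2.01 and -2.90 in WT pairs 1 to 4.

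The log2 difference of NTRC, ppi2 minus WT, was 1.56 ± 0.33 SE (2.94-fold higher, 95% interval 0.78 to 2.34, limma with Benjamini-Hochberg adjusted p = 0.0136). In the same fit 14.2% of all 3439 probes rose and 14.4% fell. The difference was 1.51 with WT pairs 1 and 2 and 1.61 with WT pairs 3 and 4 as the wild type, so both parts of WT gave a difference of like size. With WT pairs 1 and 2 alone as the wild type it did not pass the test (limma adjusted p = 0.0543), nor with array quality weights (1.47, limma adjusted p = 0.0591). It also did not pass when same-numbered pairs were matched across genotypes in the fit (1.56, limma adjusted p = 0.0570). In the deposited values, where ppi2 was 0.30 higher at the median probe on the log2 scale, NTRC was 4.84-fold higher. WT samples that were averaged into a pair differed widely for this probe. The SD within pairs was 0.11 in ppi2 and 0.89 in WT on the log2 scale, while the SD over pair means was 0.55 in ppi2 and 0.41 in WT. The SE of 0.33 rests on pair means only and may be too small. With single samples kept and the pair as a random block, the SE was 0.55 (limma adjusted p = 0.0401). By rank, which no scaling of an array can change, the NTRC probe was brighter than 65.1% to 85.5% of the probes in ppi2 samples and 25.7% to 70.7% in WT samples.

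**Figure D1:**
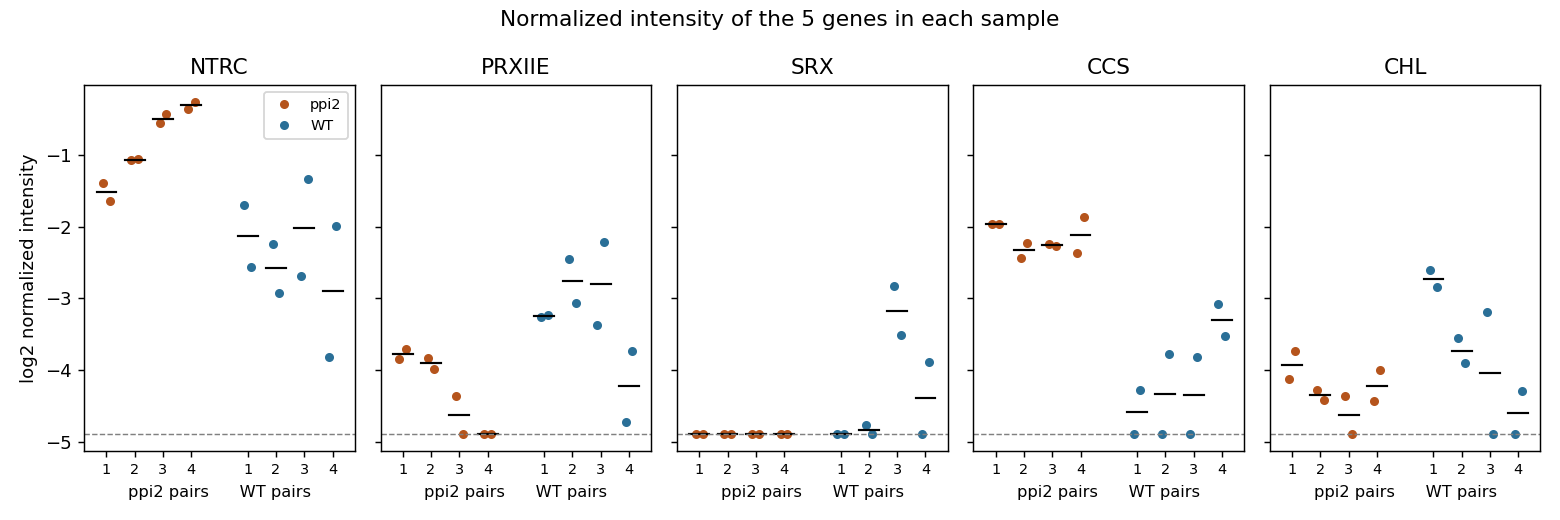
Log2 normalized intensity (vertical axis) of NTRC, PRXIIE, SRX, CCS and CHL in each sample (points), by pair number (horizontal axis), with ppi2 left of WT in each panel. Black bars are pair means and the dashed line is the floor at -4.89. CCS lies well above the floor in all 8 ppi2 samples and near it in WT, NTRC pair means are all higher in ppi2, and SRX is at the floor in every ppi2 sample.

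CCS, the copper chaperone of superoxide dismutase, rose with the smallest adjusted p of the 5 genes. Its deposited intensity was 0.169, 0.262 and 0.318 at the lowest, median and highest of the ppi2 samples, against 0.00387, 0.0513 and 0.0840 in WT samples. After normalization these were 0.185, 0.212 and 0.275 in ppi2, against 0.0338, 0.0615 and 0.118 in WT. No ppi2 sample overlapped a WT sample on either scale. The log2 levels of pairs 1 to 4 were -1.96, -2.33, -2.26 and -2.11 in ppi2, against -4.58, -4.33, -4.35 and -3.30 in WT. The ppi2 pairs lay close together, and WT pair 4 was the highest of the WT pairs.

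The log2 difference of CCS was 1.97 ± 0.28 SE (3.93-fold higher in ppi2, 95% interval 1.299 to 2.65, limma adjusted p = 0.00318). With WT pairs 1 and 2 alone it was 2.29 and with WT pairs 3 and 4 alone 1.66, and it passed the test in both and in all 22 alternatives that gave CCS a value. The size of the fold moved with the floor, since 3 of the 8 WT samples were at it and 0 of the 8 ppi2 samples were. With the floor at the 25th percentile of intensities CCS was 1.86-fold higher in ppi2. The probe was brighter than 48.8% to 60.8% of the array in ppi2 samples and 15.2% to 35.8% in WT samples. The averaged pairs of NTRC and CCS each gave an exact two-sided permutation p = 0.0286, the smallest that 4 against 4 pairs allow. Groups of pairs did not overlap in 32.2% of all probes.

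PRXIIE, the peroxidase of the type II class, was dim in both genotypes. Its deposited intensity was 0, 0.0654 and 0.0959 at the lowest, median and highest of the ppi2 samples, against 0.0229, 0.126 and 0.202 in WT samples. It was at the floor in 3 of 8 ppi2 samples and in 0 of 8 WT samples. The pair levels were -3.77, -3.91, -4.62 and -4.89 in ppi2, against -3.25, -2.76, -2.79 and -4.22 in WT, on the log2 scale. WT pair 4 lay below ppi2 pairs 1 and 2, so the groups overlapped. The log2 difference was -1.04 ± 0.41 SE (95% interval -2.03 to -0.05), which did not pass after adjustment over all probes (limma adjusted p = 0.109, exact permutation p = 0.0857). With WT pairs 1 and 2 alone it was -1.29 and with WT pairs 3 and 4 alone -0.79. Without WT pair 4 the difference was -1.36 and passed (limma adjusted p = 0.0297). With all pairs kept it also passed after centring on array medians (-1.33, limma adjusted p = 0.0284) and in the fits that count every sample singly.

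SRX, the enzyme that repairs overoxidized 2-Cys peroxiredoxins, was listed at 0 in all 8 ppi2 samples. In WT it was listed at 0 in 2 of 8 samples, and the deposited median and highest values were 0.0228 and 0.0950. After flooring, 4 of the 8 WT samples were also at the floor. The WT pair levels were -4.89, -4.83, -3.17 and -4.39 on the log2 scale, so only WT pair 3 stood clearly above the floor. The log2 difference, ppi2 minus WT, was -0.57 ± 0.38 SE and did not pass the test (limma adjusted p = 0.316, exact permutation p = 0.143). Its size is set by the floor, being -0.03 with a floor at the 25th percentile but -1.71 with one at the 1st, so no fold is given. Against WT pairs 3 and 4 alone the difference was -1.11 (limma adjusted p = 0.0597), against WT pairs 1 and 2 alone -0.03. Without WT pair 3 it was -0.19. The sources used here do not say what an exact 0 stands for, so SRX is only described as listed at 0.

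CHL, the chloroplastic lipocalin, was dim as well. Its deposited intensity was 0.0292, 0.0456 and 0.0950 at the lowest, median and highest of the ppi2 samples, against 0, 0.0748 and 0.179 in WT samples. Pairs 1 to 4 had log2 levels of -3.92, -4.35, -4.62 and -4.21 in ppi2, against -2.72, -3.73, -4.04 and -4.59 in WT. WT pairs 1 and 2 were above all ppi2 pairs and WT pair 4 below all but ppi2 pair 3. The log2 difference was -0.51 ± 0.40 SE (95% interval -1.46 to 0.44, limma adjusted p = 0.397, exact permutation p = 0.314). With WT pairs 1 and 2 alone it was -1.05 and with WT pairs 3 and 4 alone 0.04, so its sign depended on which WT pairs were used. Without WT pair 1 it was -0.16. The interval includes no change as well as a fall by more than 1 on the log2 scale.

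Counted together, 2 of the 5 genes rose, 0 fell and 3 did not pass, and their median log2 difference was -0.51. Of all 3439 probes 14.2% rose and 14.4% fell, with a median of 0. PRXIIE, SRX and CHL had 3, 8 and 1 of 8 ppi2 samples at the floor, against 0, 4 and 2 of 8 WT samples.

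The wider redox network was sparsely covered. Lists of plastid thioredoxins and their reductases, ferredoxins, thiol peroxidases, superoxide dismutases, the ascorbate and glutathione cycle, lipid protection, methionine sulfoxide reductases with glutaredoxins and ferritins, and enzymes regulated by thioredoxins held 111 loci, some of them for enzymes outside plastids. Of these, 12 had a probe of their own, 11 were listed only on probes shared with other genes, and 88 had no listed probe. Of the 12, 2 rose (NTRC and CCS), 2 fell and 8 did not pass, beside 28.6% of all probes that passed in either direction. The median log2 difference of the 12 was -0.54. The lists of redox enzymes in other compartments and of nuclear genes that respond to reactive oxygen had no member with a probe of its own.

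One of those that fell belongs to the other branch of thioredoxin reduction. AT2G04700, which has no symbol in the tables used here, is known as the catalytic subunit of ferredoxin-thioredoxin reductase and is called FTRB below. Its pair levels on the log2 scale were -3.69, -3.54, -3.84 and -3.54 in ppi2, against -2.58, -1.93, -2.30 and -1.05 in WT. All ppi2 pairs were below all WT pairs. The samples overlapped, because ppi2 sample 6, at a normalized 0.144, exceeded WT samples 2 and 5, at 0.140 and 0.125. The sample averaged with it, ppi2 sample 5, was at the floor of 0.0338. The log2 difference was -1.68 ± 0.32 SE (3.21-fold lower in ppi2, limma adjusted p = 0.0103), with -1.39 for WT pairs 1 and 2 alone and -1.98 for WT pairs 3 and 4 alone. With the floor at the 25th percentile it was -1.06 and did not pass (limma adjusted p = 0.0576). With single samples kept and the pair as a random block, the SE of the FTRB difference was 0.58 (limma adjusted p = 0.0343). NTRC and FTRB thus differed in opposite directions within the same arrays. The log2 ratio of the NTRC signal to the FTRB signal was 2.17, 2.47, 3.35 and 3.22 in ppi2 pairs 1 to 4, against 0.45, -0.65, 0.29 and -1.85 in WT pairs. The ratio of signals from different probes has no absolute meaning. Its change, 3.24 on the log2 scale, only combines the opposite differences of NTRC and FTRB already given. Its size depends on the floor through FTRB. This pair of genes was picked after their values were seen, so no test is attached to the contrast.

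**Figure D2:**
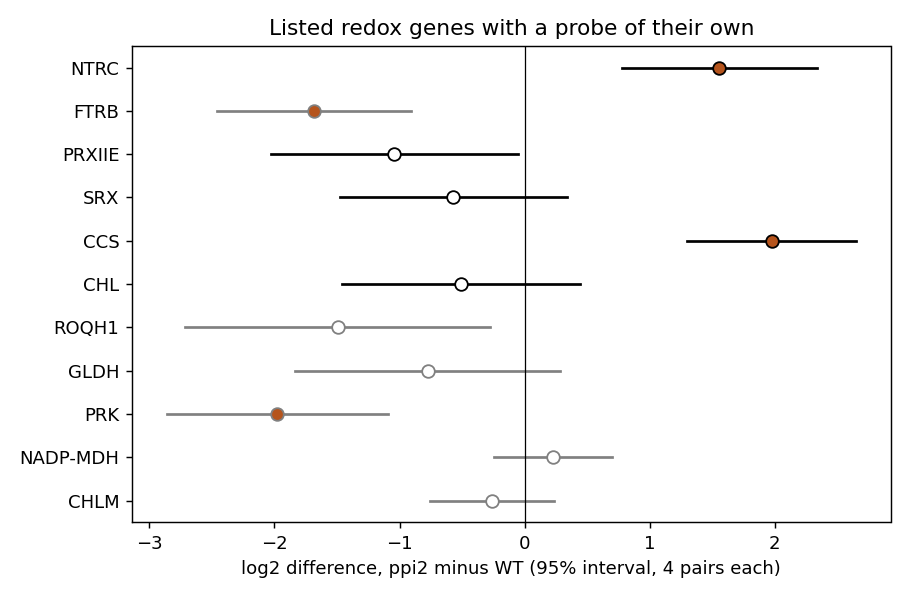
Log2 difference, ppi2 minus WT (horizontal axis), with 95% intervals from limma, for 11 of the 12 listed redox genes with a probe of their own (the one not shown, SBPASE, was listed at 0 in all samples). Filled points passed an adjusted p of 0.05 and black outlines mark NTRC, PRXIIE, SRX, CCS and CHL. NTRC and CCS lie right of 0, while FTRB and PRK lie left of it.

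The other gene that fell was phosphoribulokinase, PRK (AT1G32060), a Calvin cycle enzyme that thioredoxins activate. Its log2 difference was -1.98 ± 0.37 SE (limma adjusted p = 0.00935), and it ranged from 2.35-fold to 6.14-fold lower in ppi2 over the alternatives. Of the other enzymes known to be regulated by plastid thioredoxins, NADP-MDH (AT5G58330), the malate dehydrogenase that exports reducing power, differed by 0.23 ± 0.20 SE (95% interval -0.24 to 0.70). CHLM (AT4G25080), a methyltransferase of chlorophyll synthesis and a known partner of NTRC, differed by -0.26 ± 0.21 SE (95% interval -0.76 to 0.24), and its sign turned to 0.55 in the deposited values. For SBPASE (AT3G55800), a Calvin cycle phosphatase, every one of the 16 samples was listed at 0. Of the 4 genes of this list with a probe of their own 0 rose, 1 fell and 3 did not pass, one of them SBPASE, which could not have passed, beside 14.2% of all probes that rose and 14.4% that fell.

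AT4G31530 has no symbol in the tables used here and is known as ROQH1, which acts against the slow form of energy dissipation in the antenna that the lipocalin CHL promotes. Its probe was bright. Its pair intensities were 8.98, 9.50, 8.82 and 10.4 in ppi2, against 51.9, 48.3, 15.8 and 12.4 in WT. The ppi2 pairs were tightly grouped and below all WT pairs, while the WT pairs split into 2 high and 2 low values. The log2 difference was -1.49 ± 0.51 SE and did not pass (limma adjusted p = 0.0715). Against WT pairs 1 and 2 it was -2.41 (limma adjusted p = 0.000481) and against WT pairs 3 and 4 -0.58 (limma adjusted p = 0.0226). It thus passed against either set alone and not against all 4 WT pairs, where the sets themselves lie apart. A fit against 1 set leaves out that spread, and 29.2% and 42.2% of all probes passed in these fits. Over all processing alternatives ROQH1 passed in 10 of 23. In CHL too, WT pairs 1 and 2 were higher, at a mean log2 level of -3.22, than WT pairs 3 and 4, at -4.31. Unlike in ROQH1, the ppi2 and WT pairs of CHL overlapped, and WT was divided into these sets over all probes. GLDH (AT3G47930), which makes ascorbate in mitochondria, differed by -0.78 ± 0.44 SE (limma adjusted p = 0.245).

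The probes whose profiles over the 8 pairs were closest to each gene were sought among up to 467 single-gene probes above the floor in every pair. Likeness was the root-mean-square difference of log2 levels after each gene was centred on its own mean. This measure contains the difference between ppi2 and WT, so the closest probes have like differences by selection. They also lie below the median of the candidates by selection. The genes closest to CCS were AT1G68660, at 0.26, and AT2G28660, at 0.34, where the median of all candidates was 1.22. AT1G68660 was 2.09 ± 0.45 SE higher in ppi2 on the log2 scale, against 1.97 for CCS. Closest to NTRC were MAMI (AT5G54110), listed as a membrane-associated mannitol-induced protein, at 0.38, and AT4G04370, at 0.40, with a median of 1.08 over all candidates. They were 1.46 ± 0.17 SE and 1.85 ± 0.20 SE higher in ppi2. AT5G22340 was closest to PRXIIE, at 0.31, followed by AT3G03890, at 0.36. For CHL they were AT3G47100, at 0.28, and AT1G50510, at 0.30, and for SRX AT2G38070, at 0.20, and AT5G53620, at 0.21. SRX itself was at the floor in 5 of its 8 pairs, so that likeness to it rests mainly on WT pair 3.

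**Figure D3:**
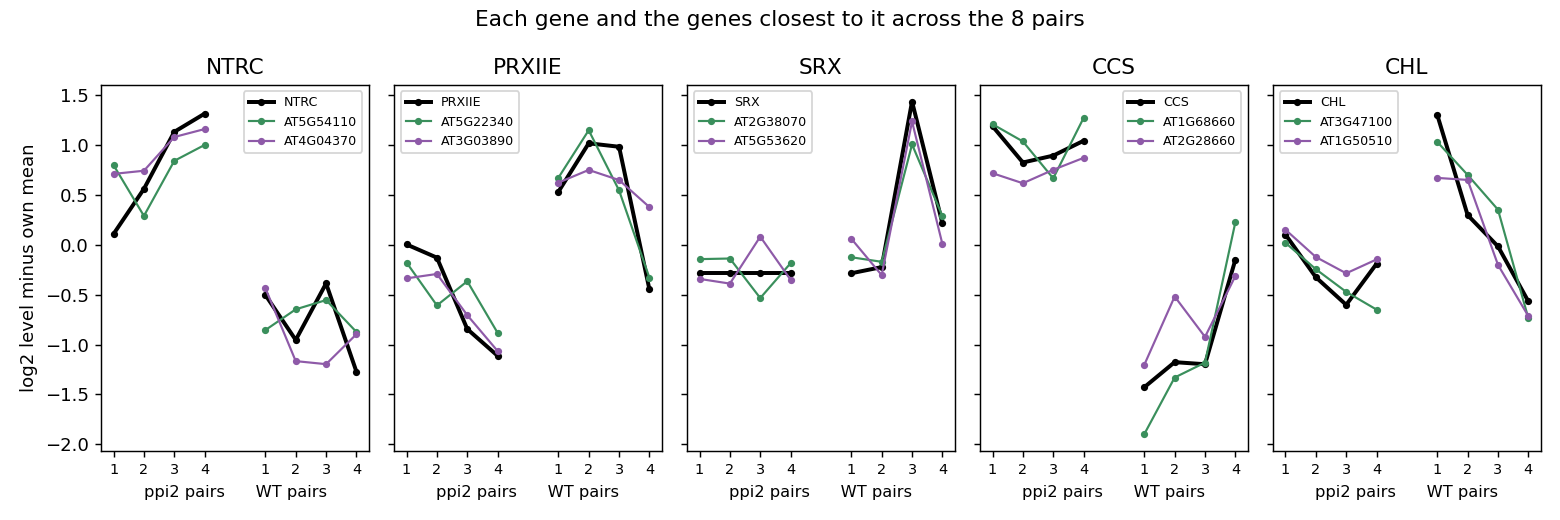
Log2 level minus the gene's own mean (vertical axis) over ppi2 pairs 1 to 4 and WT pairs 1 to 4 (horizontal axis), for each of the 5 genes (black) and the closest (green) and next closest (purple) single-gene probes. Lines only join the pairs of a gene and imply no order. The CCS panel shows 3 profiles that are high in all ppi2 pairs and lower in all WT pairs.

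Across the processing alternatives CCS stayed on the same side of the threshold in 22 of 22 and NTRC in 20 of 23. PRXIIE passed in 4 of 22, SRX in 0 of 21 and CHL in 0 of 22. The log2 difference ranged from 0.90 to 2.37 for CCS, from 1.25 to 2.28 for NTRC, from -1.70 to -0.18 for PRXIIE, from -1.71 to -0.03 for SRX and from -1.05 to 0.04 for CHL. The signs of NTRC, CCS, PRXIIE and SRX were the same in all alternatives that gave them a value, and CHL turned in 1.

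**Figure D4:**
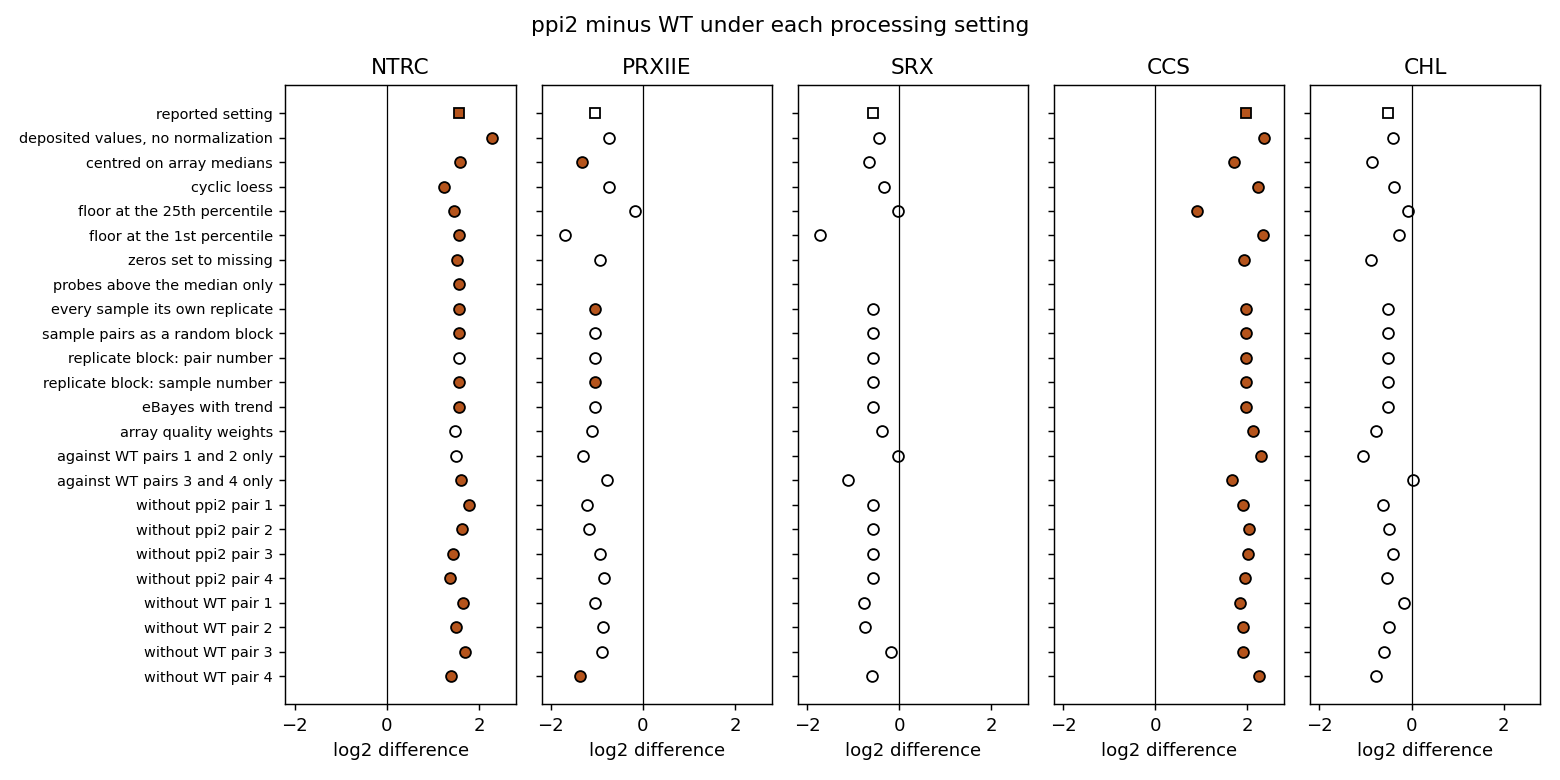
Log2 difference, ppi2 minus WT (horizontal axes), of the 5 genes under the reported setting (square) and each alternative (circles, 1 per line). Filled symbols passed an adjusted p of 0.05. All CCS symbols are filled, and all NTRC symbols lie right of 0.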

How the data were processed

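The authors' deposited table gave 1 intensity per probe and sample on a linear scale for 3439 probes in 8 ppi2 and 8 WT samples. Quantification, background correction and scaling are not given in the sources used here. Genes were named through the platform annotation by Entrez identifier and the RefSeq gene table of TAIR10.1: 692 probes had 1 gene, 870 several and 1877 none listed, and 690 of the 692 matched. Probes with several genes were left unnamed.

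Intensities were quantile-normalized between samples, floored at the 5th percentile of positive values, put on the log2 scale and averaged within pairs of neighbouring sample numbers. The difference, ppi2 minus WT, was fitted by lmFit and eBayes without trend (limma 3.58.1, R 4.3.3, 6 residual degrees of freedom). Benjamini-Hochberg adjusted p-values were taken over all 3439 probes, at a threshold of 0.05. A two-sided exact permutation test over pairs stands beside it, unadjusted. The fit was run on simulated data with normal noise, the same spread in both genotypes and no floor. That simulation therefore does not cover the unequal spread or the floored values seen here. Arrays have no read depth, so their number and the dim end of the scale limit the precision.

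The 5 genes, the gene lists and the alternatives were chosen with earlier results of these data known. All 5 genes and all listed redox genes with a probe of their own are named. For likeness, the 2 closest probes of each gene are named.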

Additional observations from a re-analysis of the deposited data

How the results depend on the processing

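Dim signals limit PRXIIE, SRX and CHL, and also CCS in WT, so the sizes of all of these are set partly by the floor. CCS was 1.86-fold higher in ppi2 with the floor at the 25th percentile and 5.02-fold with the floor at the 1st. NTRC kept its rise but did not pass with pair numbers as a replicate block across genotypes (1.56, limma adjusted p = 0.057), with array quality weights (1.47) or against WT pairs 1 and 2 only (1.51), so 1 of the 5 genes passed there. In these fits 24.6%, 26.9% and 29.2% of all probes passed, in the same order. The count of the 5 genes was also 1 with the probes limited to those above the median. NTRC was the only one of the 5 left there, and 46.5% of the 1719 probes kept passed. PRXIIE passed after centring on array medians (-1.33), and, at an unchanged -1.04, with all samples counted singly and with sample numbers as a replicate block. The last of these fits and the one before it called 1719 and 1616 probes in place of 984, since they count each sample as independent. CHL turned to 0.038 against WT pairs 3 and 4. Of the other genes named, to which the same alternatives were applied after seeing the data, CHLM turned to 0.55 in deposited values and 0.0068 against WT pairs 1 and 2, AT2G38070 to 0.26, AT5G53620 to 0.32 and AT1G50510 to 0.56 in deposited values, and AT1G50510 to 0.36 against WT pairs 3 and 4. In deposited values 73.4% of called probes were higher in ppi2, against 49.6% as reported.

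With 1 pair left out in turn, the log2 difference was 1.38 to 1.78 for NTRC, -1.36 to -0.84 for PRXIIE, -0.76 to -0.19 for SRX, 1.83 to 2.25 for CCS and -0.78 to -0.16 for CHL, and 686 to 1087 probes and 2 to 3 of the 5 genes passed. Deviations of same-numbered pairs from their group means correlated across probes at 0.38, 0.31, 0.03 and 0.33. For same-numbered samples the correlations ran from 0.03 to 0.44. All were positive, and the labels do not say whether same numbers pair samples across genotypes. Such a pairing is therefore not settled, and the reported fit has no block. The blocked fit called 846 probes. The filter on dim probes removed PRXIIE, SRX, CCS and CHL, and zeros set to missing left SRX without a ppi2 value.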
